A study of Mus musculus with 28 samples.

Results

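The Hox cluster genes are the 39 protein-coding genes of the mm9 annotation whose symbol is Hoxa, Hoxb, Hoxc or Hoxd followed by a number, out of 22238 protein-coding genes with a name. There are 11 in HoxA on chromosome 6, 10 in HoxB on chromosome 11, 9 in HoxC on chromosome 15 and 9 in HoxD on chromosome 2. An H3K27ac peak was counted with a Hox gene when its summit, the base of highest signal, lay within 100 kb of an annotated start site of that gene and no other protein-coding gene started closer. Overlapping peaks of the 15 libraries were joined, and 36 of 89050 such regions belonged to Hox genes. Each is named here by its nearest Hox start site and the distance of its summit from it, with a minus sign for upstream. No peak nearest to a Hox start site was farther away than 100 kb.

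Hox genes encode homeodomain transcription factors that give cells their position along the head to tail axis of the embryo. They stand in clusters in which all genes are transcribed in the same direction. The genes at the 3′ end are used early and anteriorly and those at the 5′ end late and posteriorly. Polycomb complexes keep unused Hox genes silent through methylation of lysine 27 of histone H3, the residue that carries acetylation (H3K27ac) at active promoters and enhancers.

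H3K27ac was measured by ChIP-seq in NMuMG cells, an untransformed mouse mammary gland epithelial line of which the subclone E9 was used, so that all libraries come from 1 clonal line. There were 3 libraries in each of 5 conditions. Untreated cells were the 0h group. The 4h and 24h groups received 2 ng/ml TGF-β, the factor that drives epithelial to mesenchymal transition (EMT) in this line, and served as the DMSO controls. The ERKi 4h and ERKi 24h groups received the same TGF-β after 30 min of pretreatment with 25 µM UO126, which inhibits the MEK kinases upstream of ERK. The same 3 untreated libraries serve both comparisons with 0h. No group had the vehicle or the time in culture without TGF-β. In comparisons with 0h these cannot be told apart from TGF-β. The labels do not say whether replicates are separate cultures, so the spread between them may be technical. The files hold called peaks and no read totals, with 50445 to 69180 peaks per library. The height of the signal at a summit (the pileup, in overlapping fragments) was worked back from the fold enrichment and p-value of each peak. It was then ranked among all peaks of its library, and the value used below is this pileup percentile, where 100 is the highest peak of the library and 0 stands for no called peak. Among the markers of mammary epithelium, Krt8 and Cdh1 had a promoter peak in all 15 libraries and Cldn4 in 11, while Krt18, Epcam, Cldn3 and Cldn7 had none in the promoter window, which reaches 1000 bp upstream and 100 bp downstream. Within 2500 bp, Krt18 was marked in 15, Cldn7 in 10, Cldn3 in 1 and Epcam in 0 libraries. Cldn4 rose from no peak in any 0h library to 88.4 ± 9.26 (SD, n = 3) at 24h on the percentile scale given above. None of 4 haematopoietic and 3 neural markers had a promoter peak, and within 2500 bp the haematopoietic Spi1 was marked in 7 libraries and the others in none.

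The sequences below are the 201 bp around the summits of the regions on which the results turn, from mm9. Hoxb1 +47.8 kb, Hoxa13 -9.9 kb and Hoxb13 -21.4 kb changed with TGF-β, and Hoxb13 -7.0 kb differed with UO126. Capitals mark matches to 7 short motifs on either strand.
Hoxa13 -9.9 kb (chr6:52220715-52220915, plus strand): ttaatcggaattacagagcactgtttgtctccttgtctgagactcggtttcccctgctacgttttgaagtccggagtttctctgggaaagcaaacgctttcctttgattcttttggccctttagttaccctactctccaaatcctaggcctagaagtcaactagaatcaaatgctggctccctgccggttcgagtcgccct
Hoxb13 -21.4 kb (chr11:96034082-96034282, plus strand): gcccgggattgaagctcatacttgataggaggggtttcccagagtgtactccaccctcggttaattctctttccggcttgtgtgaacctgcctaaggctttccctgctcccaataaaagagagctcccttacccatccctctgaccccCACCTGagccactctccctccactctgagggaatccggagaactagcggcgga
Hoxb13 -7.0 kb (chr11:96048532-96048732, plus strand): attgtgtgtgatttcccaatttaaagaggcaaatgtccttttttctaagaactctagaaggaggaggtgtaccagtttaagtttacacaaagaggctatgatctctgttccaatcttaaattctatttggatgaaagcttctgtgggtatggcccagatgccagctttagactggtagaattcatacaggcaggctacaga
Hoxb1 +47.8 kb (chr11:96275259-96275459, plus strand): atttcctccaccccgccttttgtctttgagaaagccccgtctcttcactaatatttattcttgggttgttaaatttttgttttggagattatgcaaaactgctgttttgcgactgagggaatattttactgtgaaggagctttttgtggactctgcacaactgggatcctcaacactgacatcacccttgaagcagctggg

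The motifs searched were those of AP-1 (TGANTCA), TEAD (GGAATG), RUNX (TGTGGT), PBX with HOX (TGATTNAT), homeodomain proteins (TAATTA), nuclear receptors (AGGTCA) and the E-box bound by ZEB and SNAIL factors (CAGGTG). Of the printed windows, Hoxb13 -21.4 kb held 1 E-box and the other 3 held none of these letters. Over the 60506 windows of this length at regions called in at least 3 libraries, the shares with a match were 6.32% for AP-1, 11% for TEAD, 13.4% for RUNX, 2.18% for PBX with HOX, 3.28% for the homeodomain motif, 12.7% for AGGTCA and 15.1% for the E-box. The 26 Hox windows held a match in 1, 2, 1, 0, 1, 2 and 3 cases, in the same order. The window of Hoxb1 +47.8 kb held 3 CpG dinucleotides and 42.79% G or C. The median was 4 CpG in the Hox windows and 2 in all tested windows.

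Nearly all Hox peaks lay in or beside HoxA and HoxB. In these bulk libraries, a region marked in fewer cells and one marked more weakly in each cell cannot be told apart. Of the 36 Hox regions, 26 had a peak in at least 3 of the 15 libraries, 19 of them in HoxB, 6 in HoxA, 1 in HoxC and 0 in HoxD. A peak in every library was found at 10 regions, 6 in HoxB and 4 in HoxA, and 9 regions came from a single library. Within the body of a cluster, from the first to the last annotated Hox base, peaks covered 2.76% to 4.25% of HoxA (105.5 kb) and 2.64% to 4.64% of HoxB (173.9 kb). In HoxC the cover was 0% to 0.262% and in HoxD 0% to 0.285%.

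**Figure D1:**
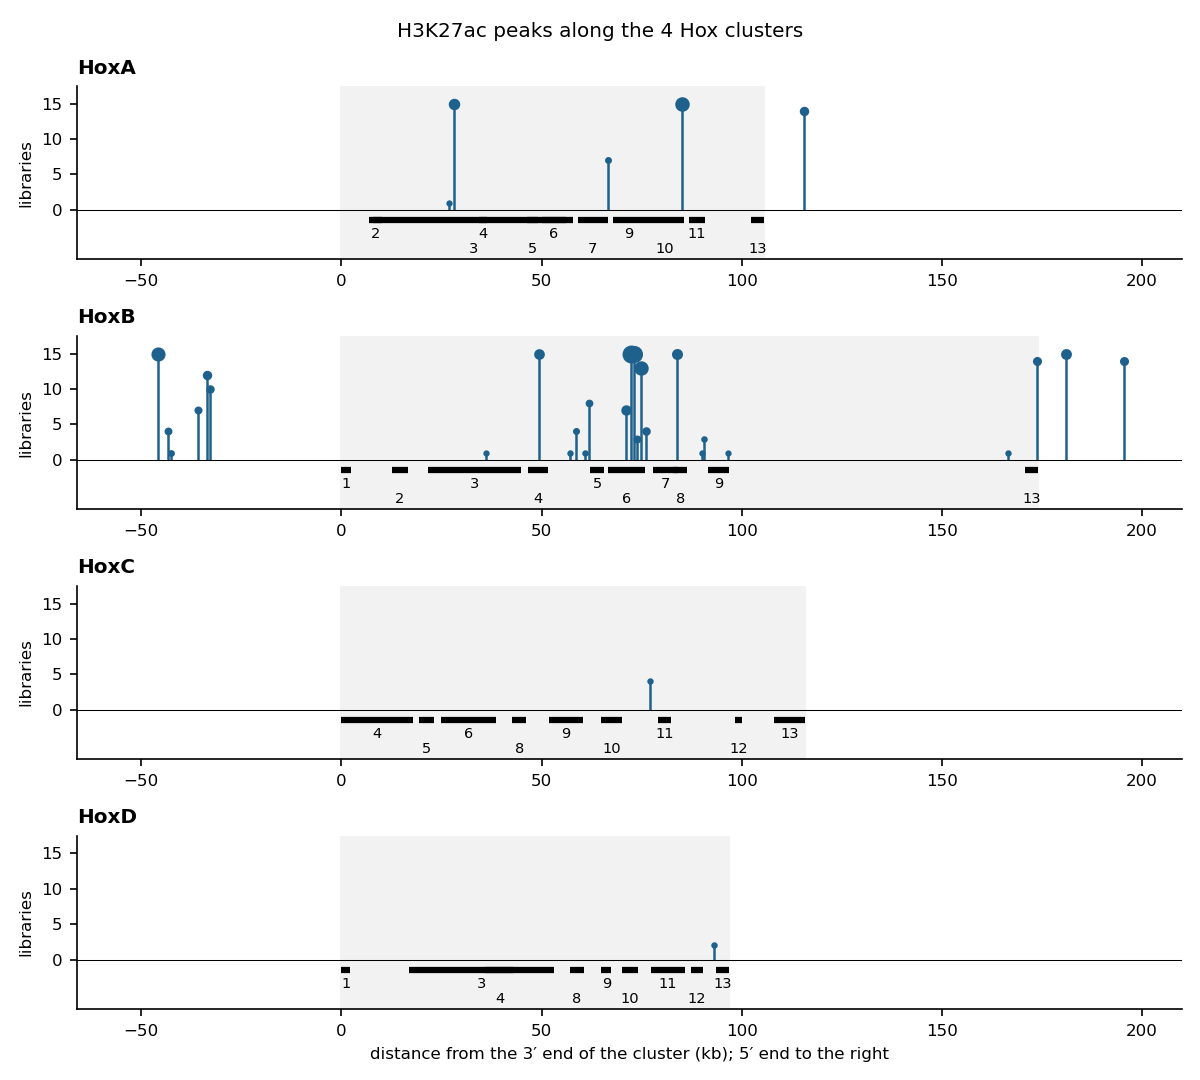
Position of Hox regions along the 4 clusters, drawn as distance in kb from the 3′ end of the cluster (horizontal axis), against the number of the 15 libraries with a peak there (vertical axis). Black bars under each axis are the Hox genes with their paralogue numbers, the grey field is the cluster body and the size of a point grows with the mean pileup percentile. HoxB holds 19 of the 26 regions found in at least 3 libraries, with peaks beyond both of its ends, and HoxC and HoxD are almost empty.

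In HoxA, Hoxa10, which acts in the reproductive tract, had the region Hoxa10 +0.4 kb in its UTR (chr6:52189431-52191200), with a pileup percentile between 55.6 and 80.4 over the 15 libraries. The region Hoxa3 +0.5 kb (chr6:52132511-52134527) lies in an intron shared by Hoxa3, a gene of pharyngeal arch development, and 2700086A05Rik, and ranged from 21.9 to 62.7. Low signal lay at Hoxa7 -0.1 kb, called in 7 libraries and at most at 29.5. Beyond the 5′ end of the cluster was Hoxa13 -9.9 kb (chr6:52219968-52221587), called in 14 libraries. Hoxa13 is a posterior gene of limb and urogenital development, and its own promoter had no peak in any library. Hoxa2, Hoxa4, Hoxa5, Hoxa6, Hoxa9 and Hoxa11 were nearest to no peak.

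In HoxB the signal was highest inside the annotated span of Hoxb6 (96153790 to 96162883 on chromosome 11), which has more than 1 start site. The regions Hoxb6 -3.1 kb (chr11:96156890-96158089) and Hoxb6 +2.6 kb (chr11:96156041-96156773) lie next to each other in introns of Hoxb6 and 0610040B09Rik. The first ranged from 88.9 to 97.5 over the 15 libraries and the second from 77.8 to 92.1. Hoxb7 +0.2 kb (chr11:96145234-96146427), in a stretch annotated as UTR of both Hoxb7 and Hoxb8, ranged from 22.3 to 57.1, and its reads cannot be given to either gene. Hoxb4 +2.2 kb (chr11:96179473-96181167), in an exon of Hoxb4, a gene known from blood stem cells, ranged from 23.9 to 52.7, and Mir10a is the nearest start site of any kind to it. At Hoxb13, the most 5′ gene of the cluster and a marker of prostate epithelium, the region at the start site was called in 14 libraries and that at -7.0 kb in 15. On the 3′ side, 6 regions lay 34.9 to 47.8 kb from Hoxb1 in a stretch with no protein-coding start site nearer, and the last, Hoxb1 +47.8 kb (chr11:96274212-96276051), was called in all 15. The start sites of Hoxb1, Hoxb2 and Hoxb3 had no peak within 2500 bp. Across these regions the 5′ end of HoxB at Hoxb13, parts of its middle and its far 3′ flank were marked. The anterior genes Hoxb1, Hoxb2 and Hoxb3, between the middle and that flank, were left without a peak at their start sites. In the middle, Hoxb5 also had no peak within 2500 bp, and Hoxb9 had a peak there in 1 library.

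**Figure D2:**
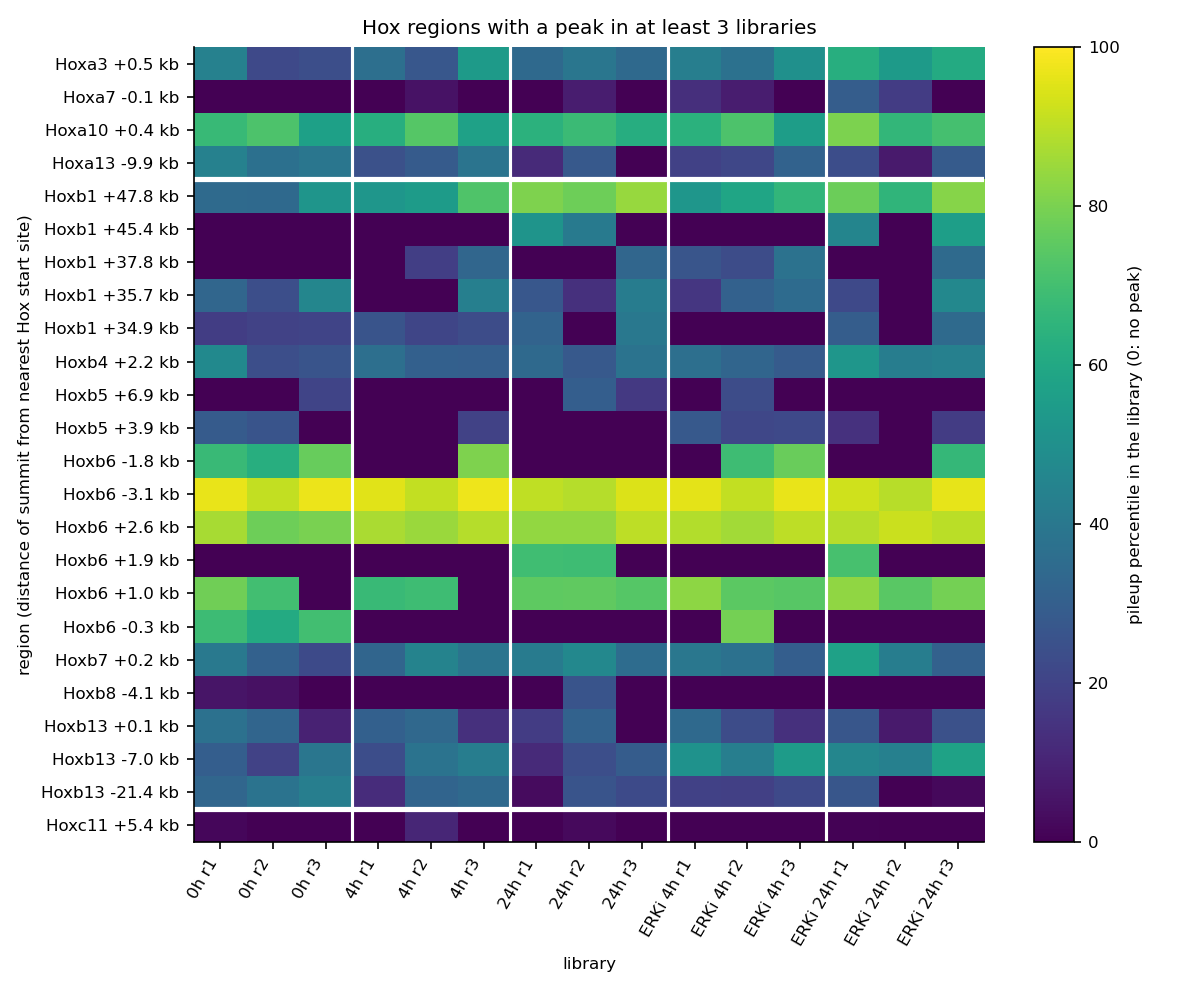
Pileup percentile (colour, 0 for no peak) of Hox regions called in at least 3 libraries (rows, ordered within each cluster from its 3′ to its 5′ side) in the 15 libraries (columns, by condition and replicate). Hoxb6 -3.1 kb is bright in every column, and Hoxb1 +47.8 kb rises from 34.1 to 52.2 at 0h to 77.8 to 84.4 at 24h.

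HoxC and HoxD were almost without peaks. The region Hoxc11 +5.4 kb was called in 4 libraries, with a highest percentile of 10.6, and Hoxd12 -3.0 kb in 2 libraries, at 7.74 and 16.3. All 9 HoxC and all 9 HoxD genes had no peak within 2500 bp of a start site in any library, nor had 7 of 11 HoxA and 4 of 10 HoxB genes. The absence is of called peaks, and signal below the calling threshold cannot be seen in the files. Marked and unmarked Hox genes had close medians of base composition. In the 1001 bp around the start sites, the ratio of observed to expected CpG had a median of 0.71 in the 6 Hox genes marked within 2500 bp in all libraries and 0.694 in the 29 never marked there, against 0.604 in all genes.

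In the promoter window, 7 Hox genes had a peak summit in at least 3 libraries (17.9%, against 42.9% of all protein-coding genes). Among them were Hoxa7, Hoxa10 and Hoxb7 in 7 each, Hoxa3 and Hoxb13 in 6 each and Hoxb6 in 4. Within 2500 bp, however, Hoxa3, Hoxa10 and Hoxb7 had a peak in all 15 libraries, Hoxb13 in 14 and Hoxa7 in 7. Counts in the window can thus change with the place of the summit while a peak remains nearby. The other 32 (82.1%) had none in any library, against 52.4% of all genes. Each library had between 2 and 5 Hox promoters with a peak. The count was 1 lower at 24h than at 0h on average (exact permutation test, two-sided, p = 0.4, where 3 against 3 libraries cannot go below 0.1). ERKi libraries had 1.17 more than DMSO libraries over both times (exact permutation within time, p = 0.09). With any 1 of the 12 libraries left out, that p lay between 0.03 and 0.18 and the difference between 0.917 and 1.5. It was 0.03 without 4h replicate 3, with a difference of 1.42, and 0.04 without 24h replicate 2, with a difference of 1.5. Both of these libraries had 4 Hox promoters with a peak, the most among the 4h and 24h libraries. Without overlap between the 3 libraries of each group, 0 of the 7 promoters were higher and 1 (Hoxb6) was lower at 24h than at 0h, where 5.6% of the 9541 promoters tested were higher and 5.6% lower. The Hoxb6 promoter peak is the region Hoxb6 -0.3 kb, with a mean fold percentile of 1.9 at 0h. It overlapped when peaks within 1000 bp were joined, and Hoxb6 had a peak within 2500 bp in all 15 libraries. For ERKi against DMSO at 24h, 0 of 7 were higher and 0 lower, where 7.76% of all were higher and 4.44% lower.

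The total length covered by Hox peaks did not pass the test across the 5 conditions. It was 14.6 ± 2.98 kb at 0h, 14.3 ± 0.636 kb at 4h and 12.7 ± 0.399 kb at 24h, with 14.1 ± 0.928 kb for ERKi 4h and 13.7 ± 2.7 kb for ERKi 24h (SD, n = 3 each; exact permutation test across the 5 conditions, p = 0.776). The 24h libraries, at 12.4 to 13.1 kb, lay below all 4h libraries, at 13.6 to 14.8 kb, by 1.63 kb on average, and those of HoxA did so by 1.38 kb (exact permutation, p = 0.1 for each, the smallest that 3 against 3 libraries allow). HoxA covered 5.12 ± 0.965 kb at 0h and 4.23 ± 0.455 kb at 24h, and HoxB 9.38 ± 1.94 and 8.37 ± 0.952 kb. The p across conditions was 0.146 for HoxA and 0.888 for HoxB, and none passed after adjustment over the set and the 4 clusters. Relative to everything called in the library, the Hox share fell from 0.0408% ± 0.00306 of covered bases at 0h and 0.0398% ± 0.00267 at 4h to 0.0334% ± 0.00282 at 24h, and was 0.0393% ± 0.00226 and 0.0346% ± 0.000552 under ERKi. On this scale the conditions differed for the set (exact p = 0.013, adjusted 0.0325), for HoxA (0.0267, adjusted 0.0444) and for HoxB (0.0123, adjusted 0.0325). The covered length of all peaks ranged from 30.8 to 44.8 Mb per library, and the part of that total in the change of share was not tested. Between ERKi and DMSO over both times the Hox length differed by 0.394 kb (exact p = 0.65) and the share by 0.000382 percentage points (p = 0.75).

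By position, only the 5′ flank of HoxA passed the test across the 5 conditions among the measures reported here. These position classes were chosen after the values had been seen, and the HoxA 5′ flank consists of a single region. The length covered 5′ of HoxA, by Hoxa13 -9.9 kb, was 1.35 ± 0.241 kb at 0h, 1.3 ± 0.121 kb at 4h and 0.307 ± 0.294 kb at 24h. The ERKi 4h libraries covered 0.918 ± 0.0884 kb and the ERKi 24h libraries 0.525 ± 0.388 kb (SD, n = 3 each; exact permutation test across conditions, p = 0.00234, adjusted over 6 position measures 0.014). The 24h libraries lay below all 0h and all 4h libraries, and the ERKi 4h libraries below all 4h libraries. The call ended when only peaks with a -log10 q of at least 10 were kept (exact permutation test, adjusted p = 0.0659), and with the 20000 highest peaks of each library p was 1. Of the other measures reported here, both flanks of HoxB and the bodies of both clusters did not pass across the 5 conditions, with adjusted p between 0.181 and 0.925. The HoxB 5′ flank also fell, from 1.81 ± 0.272 kb at 0h and 1.85 ± 0.614 kb at 4h to 1.12 ± 0.407 kb at 24h. It was 1.01 ± 0.426 kb under ERKi 24h, where all libraries lay below all 0h libraries.

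**Figure D3:**
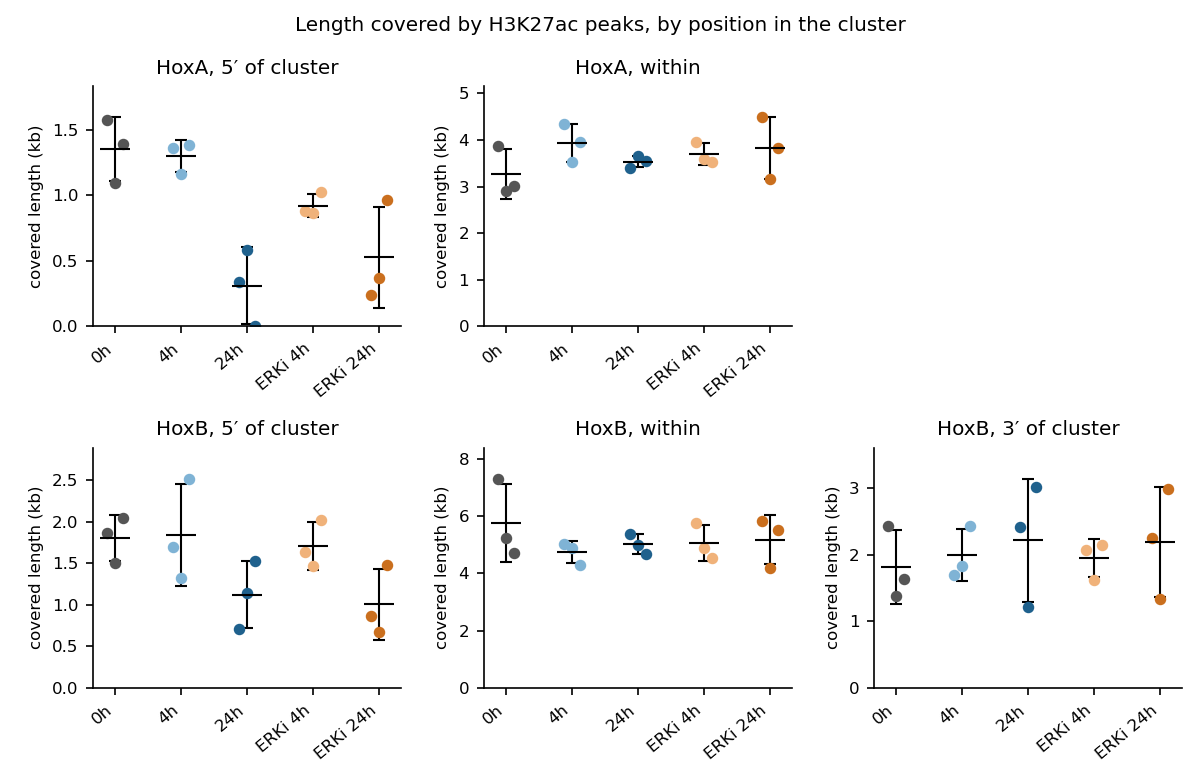
Length covered by H3K27ac peaks (kb, vertical axes from 0) on the 5′ flank and in the body of HoxA and HoxB and on the 3′ flank of HoxB, by condition. Points are libraries and bars are mean ± SD (n = 3). The HoxA 5′ flank falls from 1.35 kb at 0h to 0.307 kb at 24h, and the points on the HoxB 3′ flank overlap between all conditions.

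The comparison of 24h with 0h asks which Hox regions differ between untreated cells and cells at 24h of TGF-β. Without overlap between the libraries of the groups, 1 of the 26 Hox regions called in at least 3 libraries was higher (3.85%, where 18.7% of the 60506 regions tested were higher) and 4 were lower (15.4%, where 11.6% were lower). With libraries paired by replicate number and every pair required to differ the same way, 4 were higher and 7 lower, where 26.1% and 20% of all regions were. The count of higher regions became 7 without 0h replicate 1, 2 without 0h replicate 2 or 24h replicate 2, and 5 without 24h replicate 3.

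The region that rose was Hoxb1 +47.8 kb, in intergenic sequence 3′ of HoxB, where the start of the non-coding Gm11531 lies nearer than any Hox start site. Its pileup percentile was 34.7, 34.1 and 52.2 at 0h, 52.5, 54.9 and 72.5 at 4h, and 80.7, 77.8 and 84.4 at 24h. Under ERKi it was 52.5, 58.6 and 66 at 4h and 77.6, 65.4 and 81.8 at 24h. Every TGF-β library lay above every 0h library, except that the 2 values of 52.5 lie only just above 52.2, and the ERKi libraries overlapped the DMSO libraries at both times. The pileup itself went from 28 to 46 fragments at 0h to 81 to 126 at 24h. On the log2 scale, with the libraries centred on their median over the 26934 regions called in all 15, the increase at 24h was 1.57 ± 0.249 (SE; limma, adjusted p = 0.000261 over these regions, and between 0.000165 and 0.00257 with any 1 of the 6 libraries left out). It was 1 of 10 Hox regions so tested that passed at 24h, where 18.1% of all passed. With the replicate block, Hoxb6 -3.1 kb passed too, at -0.32 (adjusted p = 0.00731). At 4h the increase of Hoxb1 +47.8 kb was 0.78 ± 0.249 (limma, adjusted p = 0.103, 0.000702 with the replicate block and 0.0317 without 0h replicate 3). ERKi changed it by -0.06 ± 0.249 at 4h and -0.26 ± 0.249 at 24h (limma, adjusted p = 1 and 0.651). The fold enrichment of this region did not separate the groups, with a mean percentile of 62.2 at 0h and 66.9 at 24h. The local background estimated by the peak caller averaged 5.83 fragments there at 0h and 18.9 at 24h, and its part in the result was not tested. The neighbouring Hoxb1 +45.4 kb was called in 2 libraries each of 24h and ERKi 24h and in none of the other 9.

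Of the 4 regions that were lower at 24h, 2 lay beyond the 5′ ends of the clusters. Hoxa13 -9.9 kb was at 43.9, 36.9 and 39.4 at 0h, 24.8, 28.9 and 38.4 at 4h, and 11.8, 28 and no peak at 24h. Under ERKi it was at 19.5, 21.2 and 31.4 at 4h and 23.7, 7.07 and 28.7 at 24h. Hoxb13 -21.4 kb was at 33, 38.3 and 42.7 at 0h, 12.8, 32.3 and 34.1 at 4h, and 3.11, 25.9 and 22.4 at 24h. Under ERKi it was at 19.5, 18.8 and 22.1 at 4h and 26.8, no peak and 2.29 at 24h. Both were lower at 24h by -log10 p as well. By fold enrichment Hoxb13 -21.4 kb was lower too and Hoxa13 -9.9 kb overlapped. The ERKi 24h libraries of both also lay below every 0h library.

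The other 2 lower regions, Hoxb6 -0.3 kb and Hoxb6 -1.8 kb, were separate calls at the edges of the Hoxb6 signal. Both had a peak in all 3 libraries of 0h and in none of 24h. Their pileup percentile at 0h was 66.4 ± 4.55 and 69.1 ± 7.08, while their fold enrichment stood at a mean percentile of 1.9 and 2.07. At Hoxb6 -0.3 kb the pileup of the 0h libraries was 54 to 103 fragments over a local background of 25.3 to 58. Read as 1 stretch of 6 regions (chr11:96153216-96158650), the Hoxb6 signal was cut into 5 to 6 peaks at 0h and 3 to 5 at 24h, and covered 2.54 ± 0.388 kb and 2.28 ± 0.308 kb (SD, n = 3 each; exact permutation test, p = 0.4). Its highest percentile was 94.9 ± 3.42 and 91.4 ± 2.93. When peaks within 1000 bp were joined, neither Hoxb6 call remained.

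At 4h against 0h, 2 Hox regions were higher without overlap (8.61% of all regions were) and 1 was lower (5.37% of all). Paired by replicate number, 4 were higher and 4 lower (15.7% and 17.7% of all). The higher ones were Hoxb1 +47.8 kb and Hoxb1 +34.9 kb, the second by 3.89 percentiles (19.4 ± 1.19 to 23.3 ± 2.7), and the lower one was Hoxb6 -0.3 kb. Both higher regions overlapped by fold enrichment and by -log10 p. When peaks within 1000 bp were joined, Hoxb1 +34.9 kb (30.1 at 4h against 34.2 at 0h) and Hoxb6 -0.3 kb (94.6 against 94.9) overlapped. The higher count became 6 without 0h replicate 1 and 4 without 4h replicate 1. The lower count became 2 without 0h replicate 1 or 2, 4 without 0h replicate 3 and 5 without 4h replicate 3. By limma, 0 of the 10 regions called in all libraries passed (3.82% of all did) and 1 had an unadjusted p below 0.05.

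**Figure D4:**
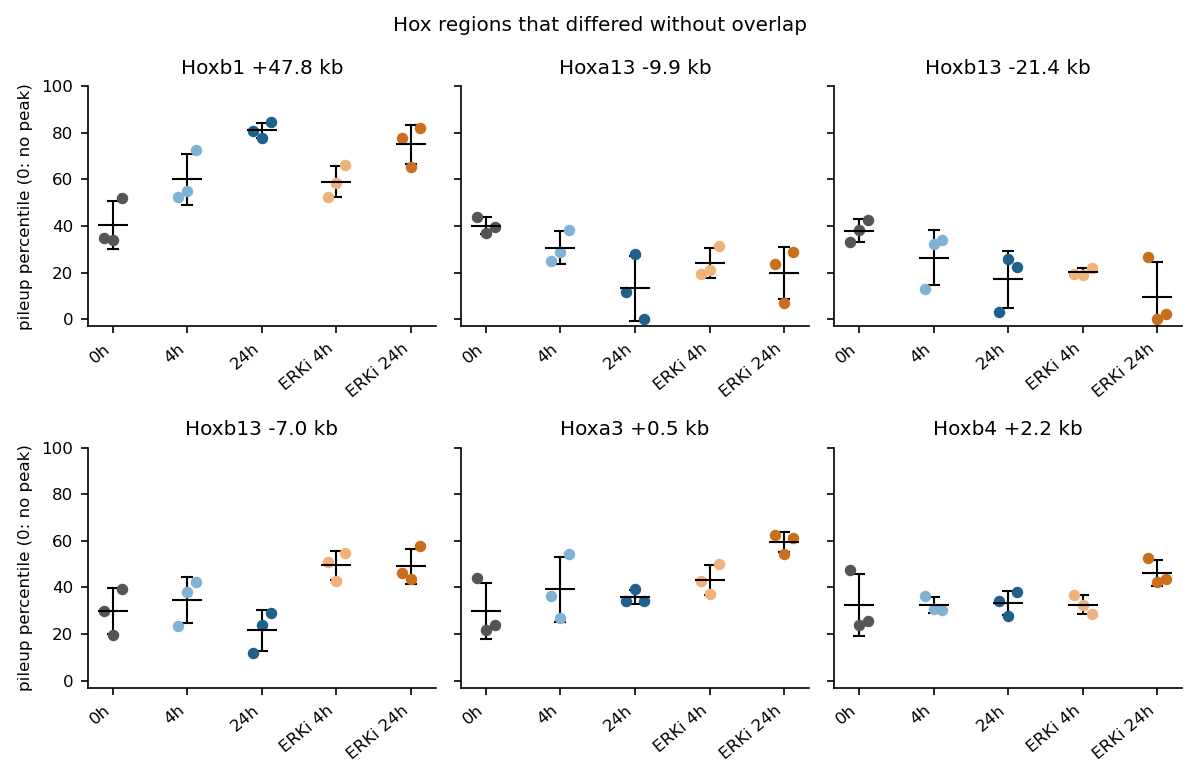
Pileup percentile (vertical axis, 0 for no peak) of 6 Hox regions whose libraries did not overlap in at least 1 comparison, by condition. Points are libraries and bars are mean ± SD (n = 3). Hoxb1 +47.8 kb rises with time with and without UO126, Hoxa13 -9.9 kb and Hoxb13 -21.4 kb fall, and the lower row shows 3 regions with higher values under ERKi at 24h.

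The comparison of ERKi with DMSO asks which Hox regions depend on MEK activity during the TGF-β response. At 24h, 4 Hox regions were higher under ERKi without overlap (15.4%, where 11.1% of all regions were) and 0 were lower (8.26% of all). Paired by replicate number, 5 were higher and 1 lower (23% and 17.3% of all). The higher count became 7 without ERKi 24h replicate 2, and the lower count 1 without 24h replicate 1 or without ERKi 24h replicate 1 or 3. By limma, 2 of the 10 regions called in all libraries passed (7.5% of all did).

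Those 2 were Hoxb13 -7.0 kb and Hoxa3 +0.5 kb. Hoxb13 -7.0 kb, in intergenic sequence upstream of Hoxb13 (chr11:96048107-96049368), was at 11.8, 23.9 and 28.9 at 24h and at 46.1, 43.5 and 57.6 under ERKi 24h. At 4h it was at 23.5, 38.3 and 42.3 with DMSO and at 51, 42.8 and 54.8 under ERKi, and at 0h at 30, 19.8 and 39.4. All 6 ERKi libraries thus lay above all 9 others, with 42.8 as the lowest of the 6 and 42.3 as the highest of the 9. By fold enrichment the groups overlapped at both times. The log2 change was 0.95 ± 0.262 at 24h (SE; limma, adjusted p = 0.0333) and 0.58 ± 0.262 at 4h (adjusted p = 0.808). With the replicate block the limma adjusted p was 0.000351 at 24h and 0.0746 at 4h. Without the block, the call at 24h was lost when 24h replicate 1 (adjusted p = 0.156) or ERKi 24h replicate 2 (0.0927) or 3 (0.133) was left out.

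Hoxa3 +0.5 kb was at 34.2, 39.3 and 34.2 at 24h and at 62.7, 54.5 and 61.1 under ERKi 24h. It was at 43.9, 21.9 and 24.1 at 0h, at 36.4, 27 and 54.4 at 4h, and at 42.7, 37.3 and 50 under ERKi 4h, so that only the ERKi 24h libraries stood apart, and 1 of the 4h libraries reached 54.4. The log2 change at 24h was 0.85 ± 0.242 (limma, adjusted p = 0.0391, and 0.00238 with the replicate block). With 1 library left out and no block, the adjusted p was between 0.0499 and 0.115 and passed only without 24h replicate 2. Hoxb4 +2.2 kb, also higher, was at 34.2, 28 and 37.9 with DMSO and 52.7, 42.3 and 43.6 under ERKi. By fold enrichment it overlapped, with a mean percentile of 61.4 with DMSO and 76 under ERKi. Its log2 change of 0.38 ± 0.227 did not pass (limma, adjusted p = 0.382).

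At 4h, 3 Hox regions were higher under ERKi than with DMSO (11.5%, where 3.79% of all regions were) and 1 was lower (3.62% of all). Paired by replicate number, 5 were higher and 2 lower (17.4% and 11.6% of all). The higher ones were Hoxb13 -7.0 kb, Hoxb6 +1.0 kb (45.6 ± 39.5 to 77.3 ± 4.9) and Hoxb5 +3.9 kb (6.55 ± 11.3 to 23.7 ± 3.61), of which Hoxb6 +1.0 kb and Hoxb5 +3.9 kb lacked a call in 1 and 2 of the DMSO libraries. The lower one, Hoxb1 +34.9 kb, was at 26.1, 20.8 and 23.1 with DMSO and had no peak in the 3 libraries of ERKi 4h. When peaks within 1000 bp were joined, Hoxb6 +1.0 kb (94.5 under ERKi against 94.6) and Hoxb1 +34.9 kb (27.3 against 30.1) overlapped. The mean fold percentile of Hoxb6 +1.0 kb under ERKi 4h was 6.26. By fold enrichment Hoxb13 -7.0 kb and Hoxb5 +3.9 kb overlapped, and Hoxb5 +3.9 kb did so by -log10 p too. The higher count became 6 without 4h replicate 3, and the lower count 2 without 4h replicate 1 or ERKi 4h replicate 3. By limma, 0 of the 10 regions called in all libraries passed (0.267% of all did) and 1, Hoxb13 -7.0 kb, had an unadjusted p below 0.05.

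Genes that work with or upon the Hox genes were read at their promoters by the same rule. The TALE cofactors, homeodomain proteins of the PBC and MEIS classes that bind DNA together with Hox proteins, had a promoter peak in at least 3 libraries in 8 of 9 genes and in all 15 in 5. None changed without overlap at 24h against 0h, where 5.6% of all promoters were higher and 5.6% lower. Under ERKi at 24h, 4 were higher (among them Meis1, Meis3 and Pknox1) and 0 lower. Of all promoters, 7.76% were higher and 4.44% lower. Meis1 went from 82.1 ± 3.85 with DMSO to 90.5 ± 3.25 under ERKi and Pknox1 from 88.9 ± 3.45 to 92.7 ± 1.6. Meis3 went from no summit in the promoter window to 29.2 ± 22.7. It had a promoter peak in 7 libraries but a peak within 2500 bp in all 15, so its call can reflect the place of the summit. Of 14 upstream regulators, 8 were marked in at least 3 libraries, 7 of them in all 15. Among these 14, only Rara, a retinoic acid receptor, was higher at 24h than at 0h (93.1 ± 0.186 to 96.8 ± 0.766), where 5.6% of all promoters were. It was higher again under ERKi 24h (98.2 ± 0.655), where 7.76% of all promoters were, and the others overlapped. Cdx1, Cdx4, Rarb and Cyp26a1 had no peak within 2500 bp in any library.

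Of 12 Polycomb genes, 11 were marked in at least 3 libraries and 8 in all 15. None changed without overlap at 24h against 0h, where 5.6% of all promoters were higher and 5.6% lower. Under ERKi at 24h, 3 were higher (among them Bmi1 and Cbx7) and 2 lower (Suz12 and Pcgf2). Of all promoters, 7.76% were higher and 4.44% lower. Cbx7 went from no summit in the promoter window with DMSO to 20.8 ± 1.31 under ERKi. It had a promoter peak in 9 libraries but a peak within 2500 bp in all 15, so its call can reflect the place of the summit. Of 18 genes that flank the clusters, 9 were marked in at least 3 libraries and 7 in all 15. Evx1 and Evx2, the homeobox genes next to the 5′ ends of HoxA and HoxD, and Skap1 beside HoxB had no peak within 2500 bp. Skap2 beside HoxA and the HoxB neighbours Snx11, Cbx1 and Nfe2l1 had a promoter peak in all 15. None of these neighbours changed at 24h against 0h, where 5.6% of all promoters were higher and 5.6% lower. Under ERKi at 24h 1, Cbx1, was lower, where 4.44% of all promoters were.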

How the data were processed

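H3K27ac ChIP-seq peaks of 15 NMuMG libraries, 3 in each of 5 conditions taken from the labels, were analysed. Reads had been aligned to mm9 with Bowtie and peaks called by the authors with MACS2 in each library separately. The control used at peak calling and the read depth are not given in the sources used here, so precision is read only from the spread of 3 libraries. RNA-seq and input samples were not analysed here. Per the file headers and the values, the deposited peak files hold a score, a fold enrichment as a ratio to local background, and p-values and q-values as -log10. From these, the summit pileup and local background were solved for each of 893719 peaks, and 25 could not be solved within a tolerance of 0.005. Pileups were ranked within each library.

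Peaks were given to the nearest protein-coding start site within 100 kb and overlapping peaks were joined into regions. Covered lengths were compared by two-sided exact permutation tests over libraries, within time for ERKi, with Benjamini-Hochberg adjustment over the Hox set and 4 clusters. Regions with a peak in at least 3 libraries were called where 2 groups of 3 libraries did not overlap, for which 0.1 is the smallest exact p. On log2 pileups centred on each library's median, limma 3.58.1 in R 4.3.3 was fitted to the 26934 regions present in all libraries, with adjustment over all of them. Same-numbered libraries deviated together, with a correlation over 0.1 in 30 of 30 pairs (mean 0.555), so the replicate block is given as an alternative. Motifs and composition were read from mm9. Python 3.11.15, NumPy 2.4.6, SciPy 1.17.1 and pandas 2.3.3 were used, and the procedures were tested on simulated data.

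Named with values are Hox genes with a promoter peak in at least 3 libraries, the 2 regions of each cluster with the highest mean percentile, and regions without overlap at 24h against 0h or ERKi 24h against 24h. Other named regions were chosen after their values were seen, and results for some genes are not reported here. The members and gene lists were chosen with earlier results of these data known. The position classes, limma and the Hoxb6 stretch were added after the data had been seen. Alternatives were a stricter q, the 20000 highest peaks, the share of covered bases, another nearest-gene rule, 50 kb, ranks by fold or p, regions merged within 1000 bp, a wider promoter and leaving out each library.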

Additional observations from a re-analysis of the deposited data

How the results depend on the processing

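Because the files hold called peaks only, signal under the calling threshold cannot be seen, and a comparison of 2 groups of 3 libraries could not pass 0.05 by exact permutation. The cause of each change below was not tested. With libraries paired by replicate number (the replicate block), regions without overlap became 4 higher and 7 lower at 24h against 0h, 4 and 4 at 4h against 0h, 5 and 2 for ERKi 4h against 4h, and 1 lower for ERKi 24h against 24h. The block gave 2 limma calls at 24h and 1 at 4h.

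With a -log10 q of at least 10, ERKi against DMSO changed HoxB by -0.0723 kb. The count of Hox promoters with a peak was then 0.667 higher at 24h than at 0h, which reversed its direction. In this setting 2 regions were lower at 24h, 0 were higher at 4h, and 0 were higher and 0 lower for ERKi 4h. The HoxA 5′ flank then had an exact p across conditions of 0.0124. With the 20000 highest peaks, the change at 24h was 0.434 kb for the set, 0.138 kb for HoxA and 0.296 kb for HoxB, with 0 regions lower at 24h, 0 higher and 0 lower at 4h, 1 higher and 0 lower for ERKi 4h, and 2 higher and 1 lower for ERKi 24h. The p across conditions on the HoxA 5′ flank was then 1 by exact permutation. As a share of covered bases, the exact p across conditions was 0.013 for the set, 0.0267 for HoxA and 0.0123 for HoxB, and ERKi changed HoxB by -0.00143 and HoxD by -1.64e-05 kb per Mb.

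Among all annotated genes, HoxA changed by 0.258 kb at 24h, with 0 regions higher and 2 lower at 24h, 0 higher at 4h, 0 lower for ERKi 4h and 2 higher for ERKi 24h. Within 50 kb, ERKi changed the set by -0.0202 kb and HoxA by -0.0588 kb. Ranked by fold enrichment, 1 region was higher for ERKi 4h and 1 for ERKi 24h, and ranked by -log10 p, 4 were higher at 24h. Merged within 1000 bp, 2 were lower at 24h, 1 higher and 0 lower at 4h, and 0 lower for ERKi 4h. With promoters of 2500 bp, the promoter count changed by 0.333 at 24h against 0h.

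With 1 library left out, regions numbered 1 to 7 higher and 4 to 6 lower at 24h, 2 to 6 higher and 1 to 5 lower at 4h, 3 to 6 higher and 1 to 2 lower for ERKi 4h, and 4 to 7 higher and 0 to 1 lower for ERKi 24h. The change at 24h ranged from -1.64 to 0.106 kb in HoxB and from -0.0623 to 0.101 kb in HoxC, and that with ERKi from -0.113 to 1.16 kb in the set, -0.325 to 0.624 kb in HoxB and -0.035 to 0.046 kb in HoxD. The promoter count differed by 0.917 to 1.5 with ERKi. The limma calls numbered 0 to 1 at 4h and 0 to 2 for ERKi 24h. Of all values recomputed, 368 were taken as the same, 55 as moved, 22 as reversed, 5 as stronger and 2 as weaker. A count of regions was the same when equal to the main count or within a factor of 1.5 of it. A tested value was the same when it kept its direction and side of the threshold or moved by less than the spread.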
